A study of Homo sapiens with 8 samples.

Results

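The large ribosomal subunit of human cells is built from rRNA and many proteins, and 46 of the genes for these proteins are described here. Members were taken by gene symbol from the annotated genes of the deposited tables, 46 of 20565 annotated genes, and the paralogs RPL22L1 and RPL36AL are among them. All 46 had reads and passed the filter on low counts, with 211817 reads in all, from 120 for RPL21 to 11283 for RPL13, with a median of 4501 reads per gene over the 8 libraries. Direct RNA sequencing with Oxford Nanopore instruments had been applied to 3 human cell lines; in this assay the RNA strand itself is read, and each read stands for 1 RNA molecule. The lines were GM12878 (3 libraries), a B-lymphoblastoid line, HepG2 (3 libraries), a hepatocellular carcinoma line, and K562 (2 libraries), an established leukaemia line that the labels list with the same lymphoblastoid cell type as GM12878. No treatment is named for any of them, and the starting material was total RNA in all 8. The labels do not say that libraries of a line came from separate cultures, so the p-values below cover no more than library-to-library spread, which may be technical.

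Large-subunit proteins surround the rRNA core that forms peptide bonds, line and rim the tunnel through which the new protein leaves, and form the stalks that bind elongation factors and tRNA. One copy of most of them goes into each subunit, and a cell makes them in step with rRNA. Many of their mRNAs begin with a C followed by an unbroken run of pyrimidines, the 5′ terminal oligopyrimidine (TOP) motif, through which growth signalling via mTOR and LARP1 controls their translation. Genes for these proteins have also left many processed pseudogenes in the human genome, copies made from spliced mRNA that can be close to identical to the parent.

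The TOP motif was looked for at the transcription starts of RefSeq (GRCh38.p14), which held 51 starts for 39 of the members by symbol. The motif searched was a C at the listed start followed by 4 letters that are each C or T, read on the transcript's own strand. It stood at a listed start of 28 of the 39 members (71.8%), against 1404 of 27305 genes in the whole table (5.14%). The genes of 3 related lists held it in 20 of 27 small-subunit protein genes, in 11 of 13 other genes known for TOP mRNAs and in 3 of 24 genes for assembly and export factors of the large subunit. Starts of the 3 P stalk genes show it plainly, and these genes are among the 4 members with the highest mean level over the lines. The 3 members with the lowest mean level, RPL21, RPL36A and RPL22L1, also held it, while RPL32, of rank 7 by mean level, did not. The sequences below run 5′ to 3′ over the 15 bases before the start and the first 15 bases of the transcript, and capitals mark the unbroken run of C and T from the start. RPLP0 lies at chr12:120201097-120201126 on the minus strand, RPLP1 at chr15:69452803-69452832 on the plus strand and RPLP2 at chr11:809952-809981 on the plus strand.
RPLP0: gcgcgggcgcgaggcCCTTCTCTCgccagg
RPLP1: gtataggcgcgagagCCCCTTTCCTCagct
RPLP2: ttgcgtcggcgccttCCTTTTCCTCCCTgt
The runs were 9, 11 and 13 letters long.

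Library totals were 70374 to 461497 reads, and the members took 11.4%, 12.3% and 11.6% of the reads of the GM12878 libraries, 10.05%, 9.38% and 9.40% in HepG2, and 12.0% and 14.5% in K562. The shares of HepG2 lay below those of every other library. In the same HepG2 libraries 10 hepatocyte markers, among them the genes for albumin and alpha-fetoprotein, took 8.35 to 9.48% of reads, and 9 of the 10 were at 0 reads in GM12878 and all 10 in K562. Scaled by TMM over the 4778 tested genes, which sets the bulk of genes level between libraries, the members' mean share was 11.9% ± 0.665 (SD, n = 3) in GM12878, 12.7% ± 0.925 (SD, n = 3) in HepG2 and 13.4% ± 3.20 (SD, n = 2) in K562. On that scale the lines' shares differed by less than the K562 spread. All 10 erythroid markers had reads in both K562 libraries, with 3.19 to 4.05% of reads, and 6 of 10 B cell markers were at 0 there, while all 10 B cell markers were read in GM12878. The part of these markers in the members' shares was not tested, and in bulk RNA fewer cells of a kind and less RNA per cell cannot be told apart.

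Within a library most members were read at similar levels. Levels are given in CPM, counts per 1e6 reads of tested genes after TMM scaling, with no scaling by length because a read is a molecule. The median member stood at 2346 to 3101 CPM in the 8 libraries, and 32 to 37 of the 46 lay within 2-fold of their library's median. The members with the highest mean over the lines were RPL13, at 4834 ± 284 CPM in GM12878, 8261 ± 949 in HepG2 and 5902 ± 2181 in K562 (SD, n = 3, 3 and 2), then RPLP1 and RPLP0. The lowest were RPL21, RPL36A and RPL22L1, each under 100 CPM in at least 1 line. RPL21, a protein of the subunit's outer shell, had 73.3, 52.4 and 84.4 CPM in the GM12878 libraries, 104, 52.8 and 59.0 in HepG2 and 64.9 and 79.4 in K562, from 6 to 35 reads a library, and the lines overlapped.

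**Figure D1:**
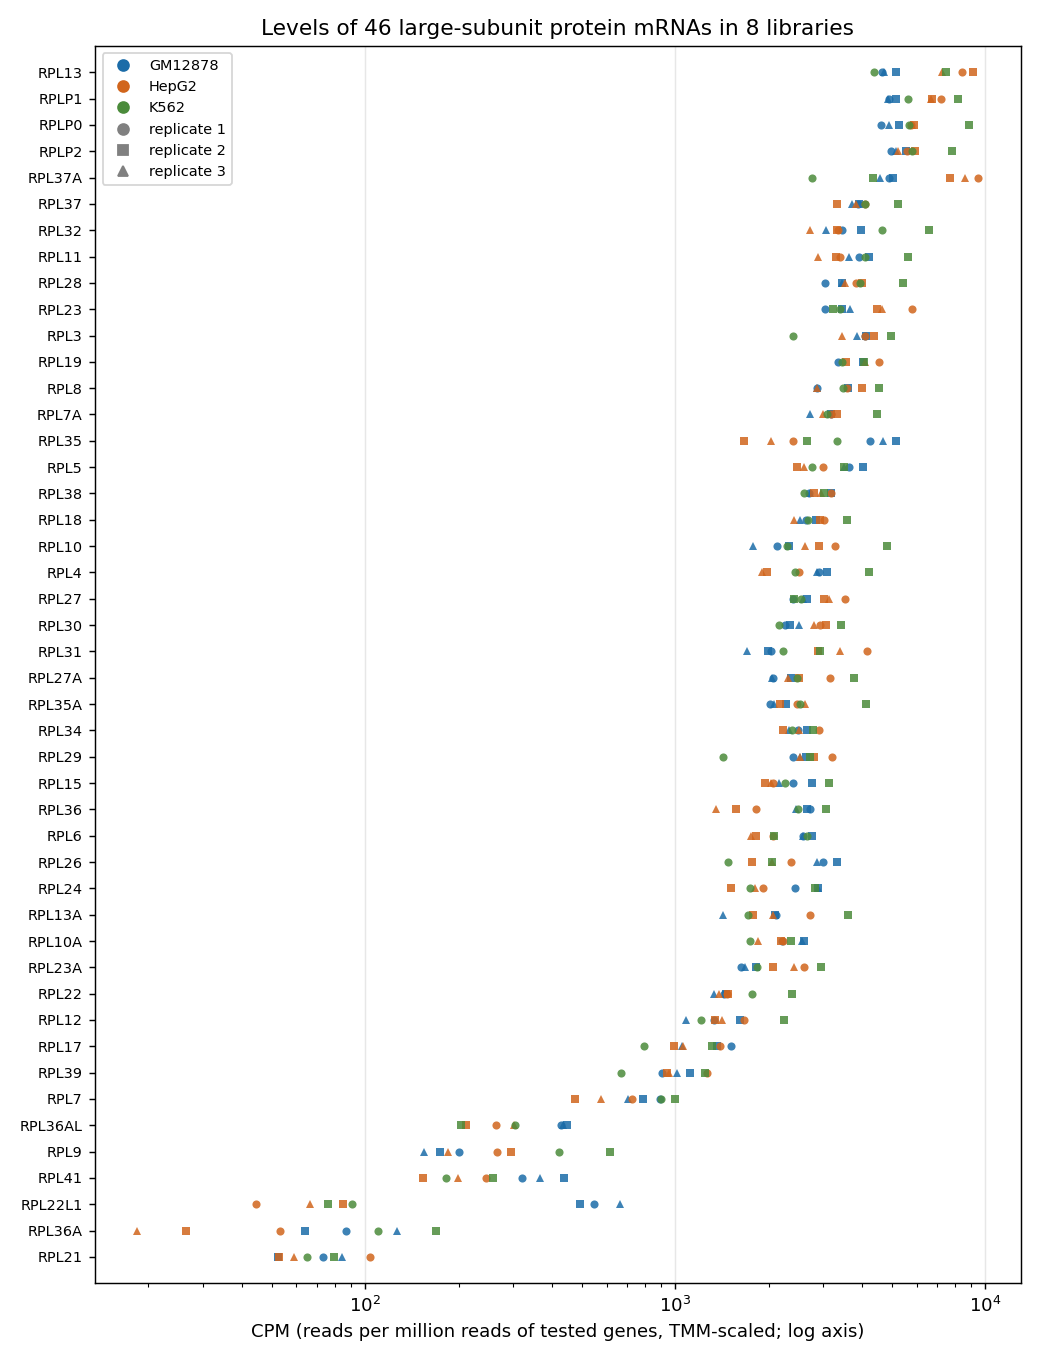
Level of each of the 46 members in each library, as CPM on a log axis, with colour for the line and shape for the replicate, ordered by mean over the lines. Most members form a band near the library medians of 2346 to 3101 CPM, and 6 genes from RPL36AL down to RPL21 trail far below it.

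The proteins of the P stalk, which recruits elongation factors, were read at nearly equal levels. RPLP0, the stalk's scaffold, had 4600, 5271 and 4878 CPM in GM12878, 5768, 5896 and 5800 in HepG2 and 5664 and 8863 in K562. RPLP1 had 4894, 5149 and 4864 CPM in GM12878, 7181, 6731 and 6655 in HepG2 and 5639 and 8166 in K562. RPLP2, which pairs with RPLP1 in the ribosome, had 4974, 5527 and 5146 CPM in GM12878, 5602, 5912 and 5218 in HepG2 and 5775 and 7807 in K562. In every library the reads of RPLP1 and RPLP2 stood within a ratio of 0.932 to 1.28. On the TMM scale HepG2 and K562 libraries lay above the GM12878 libraries for RPLP0 and RPLP1. For RPLP2 the K562 libraries did so, and the GM12878 and HepG2 libraries overlapped. As a share of library totals, HepG2 did not lie above GM12878 for RPLP0. In HepG2 against GM12878, RPLP1 alone of the 3 had an adjusted p under 0.05 (log2 0.46, adjusted p = 0.0116, edgeR). That change did not pass with library totals (adjusted p = 0.706, edgeR) or without GM12878 replicate 1 or 3. RPL12, which binds at the base of the stalk, was lower, with 1333, 1617 and 1083 CPM in GM12878, 1664, 1342 and 1419 in HepG2 and 1207 and 2249 in K562, and its lines overlapped. In K562 against GM12878, 2 of these 4 genes had an adjusted p under 0.05 (edgeR), where 31.8% of all tested genes did. Both were higher in K562, and none of the 4 passed in K562 against HepG2. The median log2 change of the 4 was 0.43 in K562 and 0.18 in HepG2 against GM12878. Each of the 4 stood higher in K562 replicate 2 than in replicate 1.

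A group of 4 members shared their reads with pseudogenes to such a degree that the copies held more than the gene. The tables list 114 genes named as numbered pseudogenes of 32 members, 98 of them with reads, and 20931 reads were assigned to them. For RPL21 the copies held 93.0% of the reads of gene and copies together, most on RPL21P16 (chr10:120354701-120355183, 1408 reads). For RPL9 they held 89.3%, most on RPL9P9 (chr15:82372196-82372912, 3516 reads), for RPL7 73.7%, most on RPL7P9 (chr1:96678874-96679620, 3196 reads), and for RPL13A 53.2%, most on RPL13AP5 (chr10:96750288-96750899, 4414 reads), by GENCODE release 29 on GRCh38. In 9 members the share was over 10%. Reads of a gene and a near-identical copy may be split by the assignment, so the levels of these genes are uncertain. With the reads of its copies added, RPL21 stood at 752 to 1575 CPM and RPL9 at 1990 to 3776 CPM, inside or near the range of the other members.

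**Figure D2:**
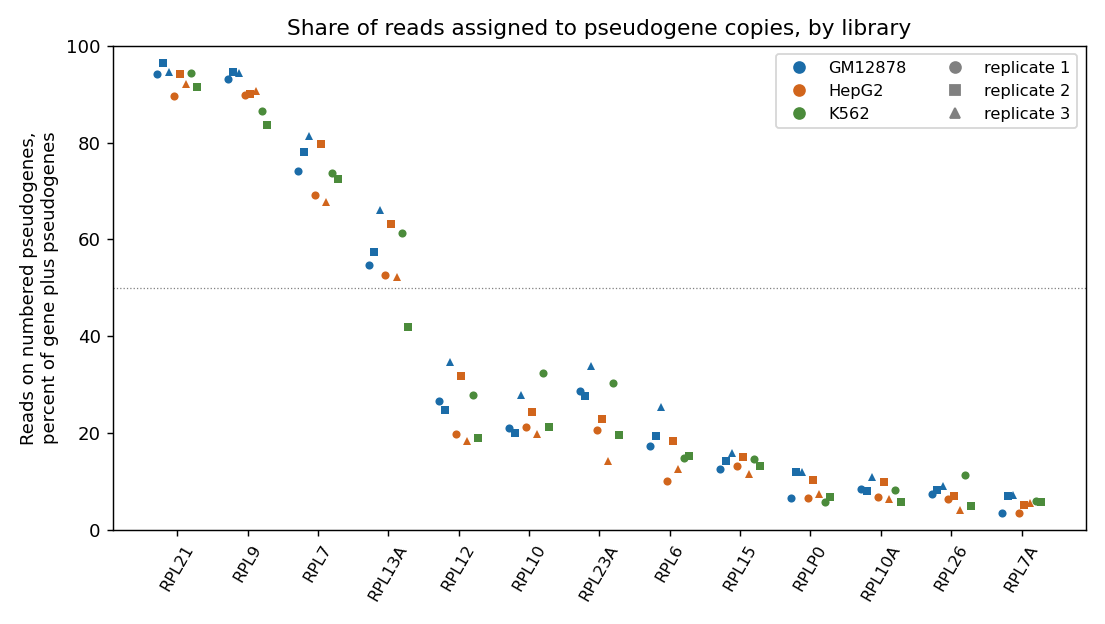
Reads assigned to numbered pseudogenes as a percent of gene plus pseudogenes, for the 13 members above 5%, by library (colour for line, shape for replicate). RPL21, RPL9 and RPL7 lie above the dotted line at 50% in all 8 libraries, and RPL13A lies above it in all but K562 replicate 2 (41.8%).

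How completely the reads of a member matched the annotation varied widely from gene to gene. The tables sort transcript models into classes: known, incomplete splice match (a part of a known model), new combination of annotated splice sites, models with an unannotated splice site, and genomic (within introns or other genomic sequence). Known models held 57.5 to 63.9% of the members' reads per library, against 35.8 to 46% for the other annotated genes. New combinations held 22.6 to 25.8% (15.9 to 16.9% in the other genes), incomplete splice matches 8.53 to 12.5% (18.9 to 28.8%), unannotated sites 4.05 to 5.59% (5.19 to 10.4%) and genomic models 0.234 to 0.359% (10.9 to 13.6%). The ranges of members and other genes overlapped only for unannotated sites. These are descriptions of pooled reads, in which the most read genes weigh most.

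Single members ran from nearly all known to nearly none. RPL39, a small protein of the exit tunnel, had 99% of its reads on known models over the 8 libraries, and RPL35 at the tunnel's rim 95.2%. At the other end stood RPL7A with 1.45%, RPL6 with 2.46% and RPL34 with 7.39%, all 3 proteins of the outer shell. Known models of RPL7A held 1.26, 0.550 and 0.515% of its reads in GM12878, 1.5, 1.11 and 1.47% in HepG2 and 1.89 and 2.01% in K562. For RPL6 these shares were 2.07, 2.95 and 5.46% in GM12878, 1.72, 1.16 and 2.94% in HepG2 and 3.16 and 2.16% in K562. RPL34 had 7.77, 12.1 and 9.64% in GM12878, 5.6, 4.29 and 6.92% in HepG2 and 8.99 and 7.56% in K562. All 3 were low in every library, so known models were few in each line. The genes themselves were well read: RPL7A had 3187, 3171 and 2727 CPM in GM12878, 3165, 3323 and 3000 in HepG2 and 3089 and 4467 in K562. RPL6 had 2580, 2758 and 2573 CPM in GM12878, 2070, 1823 and 1754 in HepG2 and 2667 and 2073 in K562. RPL34 had 2487, 2653 and 2334 CPM in GM12878, 2908, 2219 and 2502 in HepG2 and 2381 and 2784 in K562.

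**Figure D3:**
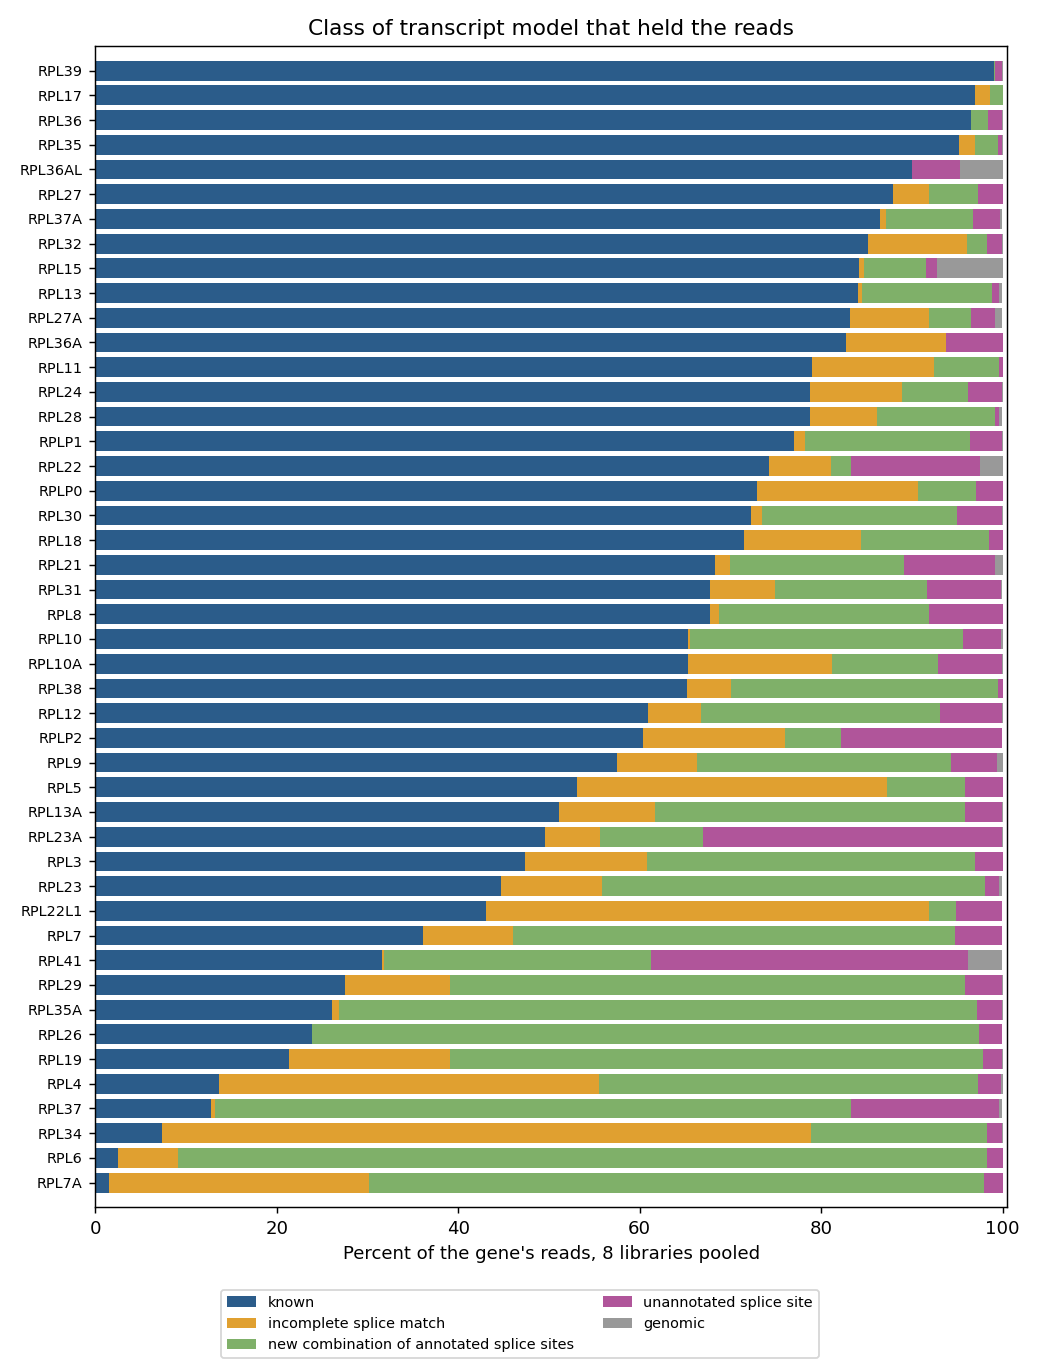
Percent of each member's reads held by each class of transcript model, 8 libraries pooled, ordered by the share on known models. RPL39, RPL17, RPL36 and RPL35 stand above 90% known, while RPL34, RPL6 and RPL7A at the bottom stand below 10%.

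The model of a gene with the highest share of library reads, averaged within and then over the lines, is called its leading model here. It was a known one for 35 members, a new combination for 7 (RPL6, RPL7A, RPL19, RPL26, RPL29, RPL35A and RPL37), an incomplete splice match for 3 (RPL4, RPL22L1 and RPL34) and a model with an unannotated site for RPL41, the smallest protein of the subunit. Of the 35 known ones, 4 are not annotated as protein-coding: those of RPL22, RPL24 and RPL37A as retained introns and that of RPL10A as a processed transcript. For RPL4 the choice was close: its incomplete match had 568 reads in all and led in 3 libraries, while the known RPL4-201, its principal transcript, had 613. For 36 members the same model led in all 8 libraries. Each of the 11 leading models that were not known had exactly 1 exon fewer than the gene's highest known model, chosen in the same way. The leading model of RPL6, a new combination, had 6 exons against 7 and held 77.4% of its reads (67.6 to 80.9% over the libraries). That of RPL7A had 7 exons against 8 and held 54.6% (46.7 to 60.8%). That of RPL34, an incomplete match that keeps the 3′ part of a known model, had 4 exons against 5 and held 69.4% (64.3 to 74.8%).

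The same pattern held against the principal transcript that APPRIS marks in GENCODE release 29. Of the 46 leading models 30 (65.2%) had 1 exon fewer than the principal transcript, 14 had the same number, RPL41 had 2 fewer and RPL32 1 more. Among 1603 other genes with at least 120 reads and 2 to 10 exons in the principal transcript, 222 (13.8%) had a leading model with 1 exon fewer, and among 33 small-subunit protein genes 15 (45.5%) did. Members' reads on models with at least the full number of exons were 29 to 37.7% per library, and those with 1 exon fewer 47.2 to 51.3%. RPL4 is among the 30 through the incomplete match. The principal transcript itself led for 11 members and held 23.5% of the members' reads. RPLP1, with a principal transcript of 4 exons, had 93.9% of its reads with at least the full number, whereas RPL13, with 6 exons, had 3.36%, and 74.8% with 1 fewer. Of the 20 known leading models with 1 exon fewer than the principal transcript, 15 began with a longer first exon than it. First exons of the principal transcripts had a median length of 110.5 bases in the 30 members with 1 exon fewer and 108.5 bases in the 14 with the same number. Which exon a new model lacks is not in the tables, and 4 principal transcripts (those of RPL5, RPL9, RPL26 and RPL36A) are not among the listed models.

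The 3 lines were compared gene by gene with edgeR's quasi-likelihood test over all 4778 tested genes. A gene is counted as called at a Benjamini-Hochberg adjusted p under 0.05 and at least a 2-fold change (1 on the log2 scale). The 3 comparisons share libraries, so their values stand side by side and are not independent of each other. In HepG2 against GM12878, 3 members passed, all lower in HepG2, where 49.1% of all tested genes passed (28.0% higher and 21.1% lower in HepG2). In K562 against GM12878, 1 member was higher and 1 lower, where 28.7% of all genes passed (13.9% higher in K562 and 14.8% lower). In K562 against HepG2, 2 members were higher and 1 lower, where 44.1% of genes passed (17.4% and 26.7%). The median absolute log2 change was 0.30, 0.32 and 0.30 over the members in the 3 comparisons and 1.06, 0.71 and 0.95 over all tested genes. Over 34 small-subunit protein genes it was 0.38, 0.225 and 0.448. These sets were not matched for reads per gene, which also bears on the size of fitted changes.

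At an adjusted p under 0.05 alone (edgeR), 7 members were higher in HepG2 than in GM12878 and 11 lower, where 55.6% of all genes passed (30.9% higher and 24.7% lower). Against GM12878, 10 members were higher in K562 and 5 lower (31.8% of all genes, 15.7% and 16.2%), and against HepG2, 10 were higher in K562 and 3 lower (50.4%, 21% and 29.4%). The split into higher and lower depended on the scaling. TMM factors were 0.806 to 0.871 in the HepG2 libraries and 1.04 to 1.20 in the others. With library totals in place of TMM the median of all tested genes moved from 0.02 to -0.33 for HepG2 against GM12878 and from -0.07 to 0.24 for K562 against HepG2. The called genes of the whole table then split into 1083 higher and 1439 lower in HepG2 than in GM12878, in place of 1338 and 1010, and into 1259 higher and 1012 lower in K562 than in HepG2, in place of 830 and 1275. For the members the split at adjusted p under 0.05 (edgeR) became 3 higher and 26 lower in HepG2 than in GM12878, and 29 higher and 1 lower in K562 than in HepG2. None of the member changes that had passed under TMM reversed, and 6 of them no longer passed. One library also decided much of the K562 results: without K562 replicate 2 the counts were 1 higher and 8 lower against GM12878 and 7 higher and 10 lower against HepG2, and without K562 replicate 1 they were 23 and 4, and 21 and 2. Where a change passed at an adjusted p under 0.05 in all 16 alternative settings, whatever its size, this is stated beside it.

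**Figure D4:**
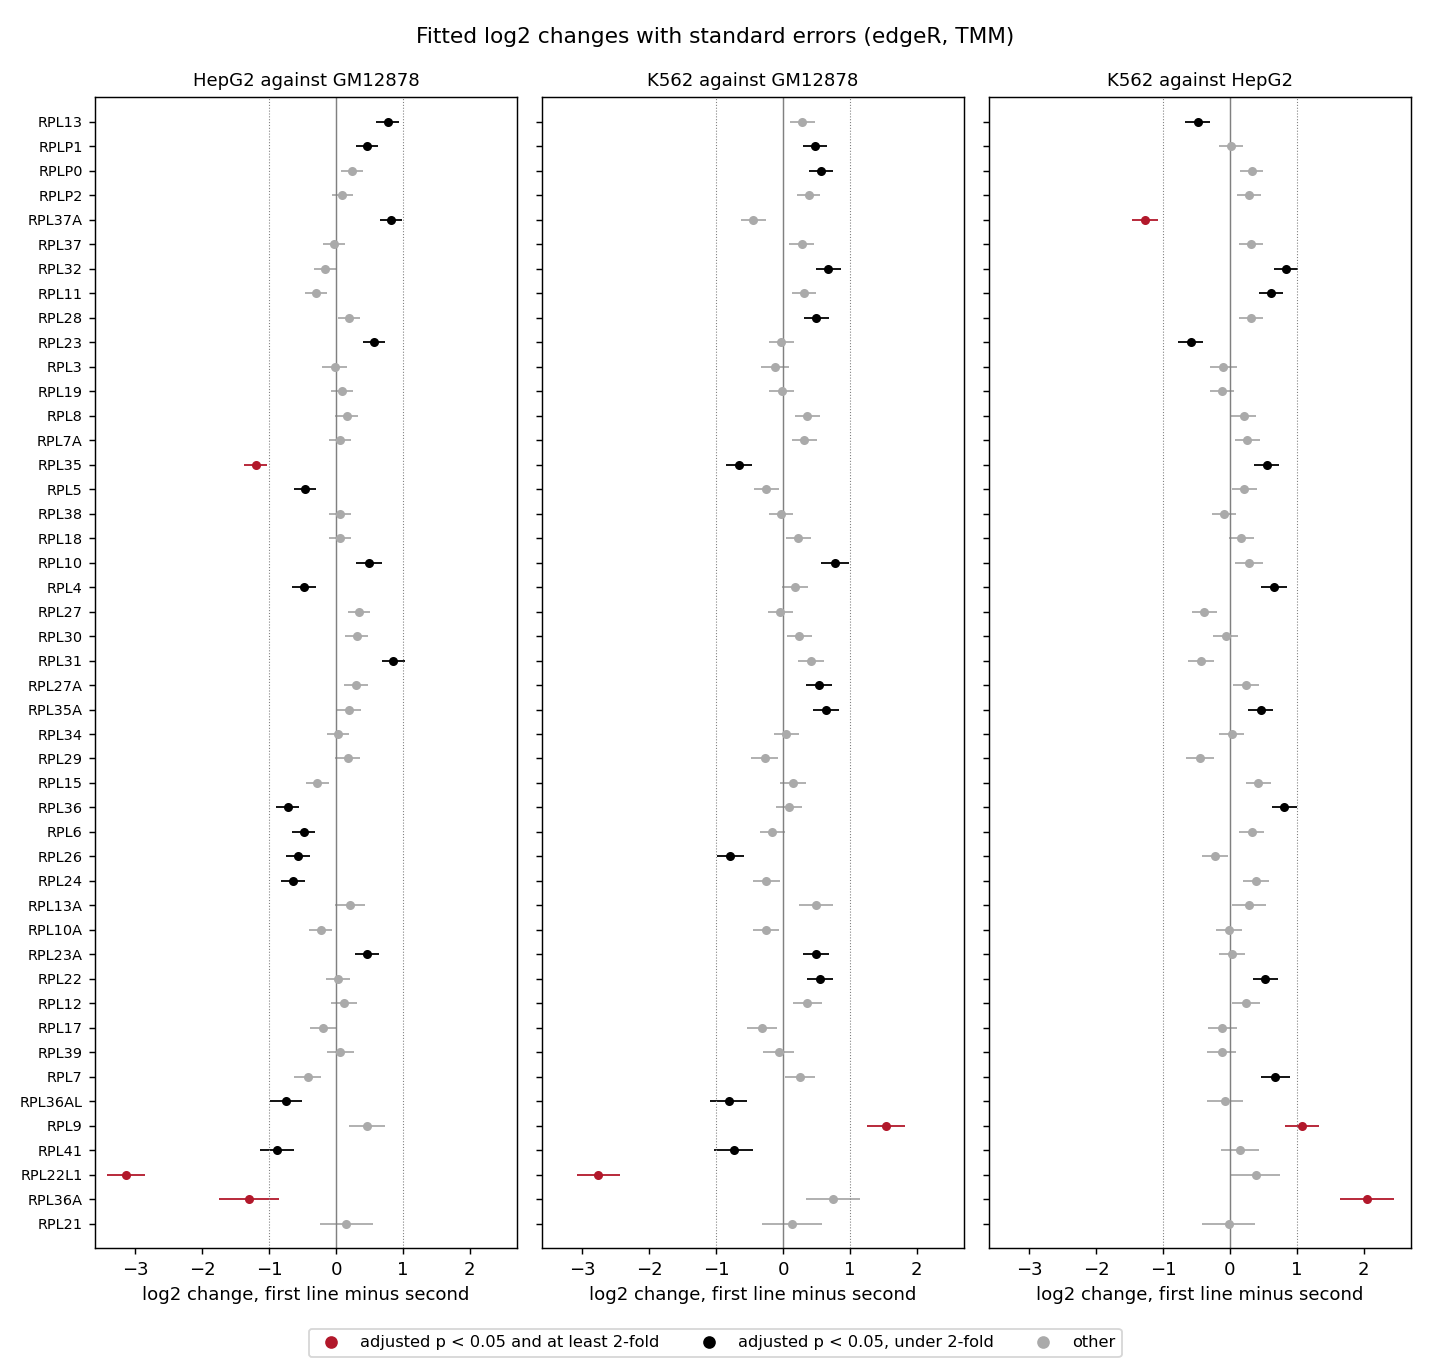
Fitted log2 change and its standard error for each member in the 3 comparisons (edgeR, TMM scaling), first line minus second, with dotted lines at 2-fold. Most points lie between the dotted lines, and RPL22L1, RPL35, RPL36A, RPL37A and RPL9 are the 5 members that pass both thresholds in at least 1 comparison.

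The widest gap between lines was that of RPL22L1, (ENSG00000163584.17, chr3:170864875-170870483), a paralog of the rRNA-binding protein RPL22 that can take its place in the ribosome. RPL22L1 had 547, 495 and 661 CPM in the GM12878 libraries (82, 85 and 47 reads), 44.4, 84.5 and 66.3 in HepG2 (15, 16 and 18 reads) and 90.8 and 75.9 in K562 (14 and 22 reads). Every GM12878 library lay far above every library of the other lines, and HepG2 and K562 overlapped. The log2 change was -3.15 ± 0.285 (SE; adjusted p = 5.28e-14, edgeR) in HepG2 and -2.76 ± 0.326 (adjusted p = 7.18e-10) in K562 against GM12878, and both passed in all 16 alternatives. RPL22 had 1440, 1454 and 1336 CPM in GM12878, 1466, 1474 and 1378 in HepG2 and 1765 and 2377 in K562, so only K562 stood above the others. There were 0.380, 0.340 and 0.495 reads of RPL22L1 per read of RPL22 in GM12878, 0.0303, 0.0573 and 0.0481 in HepG2 and 0.0515 and 0.0319 in K562, a ratio within each library that no scaling touches. RPL22 was higher in K562 than in GM12878 (log2 0.56 ± 0.195, adjusted p = 0.0235, edgeR) and than in HepG2 (0.53 ± 0.191, adjusted p = 0.0179). Neither change passed without K562 replicate 2. The former did not pass with the replicate number as a block, nor the latter without HepG2 replicate 3 or with known models only.

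RPL36A and RPL36AL code for nearly identical proteins from different genes. RPL36A (ENSG00000241343.9, chrX:101390824-101396154) had 86.7, 64.0 and 126 CPM in GM12878 (13, 11 and 9 reads), 53.3, 26.4 and 18.4 in HepG2 (18, 5 and 5 reads) and 110 and 169 in K562 (17 and 49 reads). HepG2 was the lowest line with no overlap, and GM12878 and K562 overlapped. It was higher in K562 than in HepG2 by 2.05 ± 0.405 on the log2 scale (adjusted p = 2.74e-05, edgeR), also in all 16 alternatives, and lower in HepG2 than in GM12878 by -1.30 ± 0.443 (adjusted p = 0.0107), which did not pass with known models only (adjusted p = 0.198) or without GM12878 replicate 3 or HepG2 replicate 3. RPL36AL had 427, 448 and 436 CPM in GM12878, 264, 211 and 302 in HepG2 and 305 and 204 in K562. GM12878 was the highest line without overlap, with a log2 change of -0.74 ± 0.239 in HepG2 (adjusted p = 0.00684, edgeR) and -0.81 ± 0.275 in K562 (adjusted p = 0.0180). The HepG2 change was lost without HepG2 replicate 2. The K562 change did not pass by DESeq2's Wald test, without the filter on low counts, or without any one of 5 libraries: GM12878 replicate 1, 2 or 3, HepG2 replicate 1 or K562 replicate 2. Starts of the pairs are shown because only 1 of the 4 genes, RPL36AL, has no TOP motif at its listed start, where the run is 3 letters long. The bases just before its 1 listed start are also C or T, and no other start was searched. RPL22 lies at chr1:6199581-6199610 and RPL22L1 at chr3:170870181-170870210, both on the minus strand, RPL36A at chrX:101390996-101391025 on the plus strand and RPL36AL at chr14:49620612-49620641 on the minus strand.
RPL22: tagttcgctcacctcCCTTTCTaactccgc
RPL22L1: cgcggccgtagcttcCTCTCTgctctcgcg
RPL36A: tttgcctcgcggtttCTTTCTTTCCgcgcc
RPL36AL: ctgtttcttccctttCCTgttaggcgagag
RPL22 and RPL36A begin with runs of 7 and 10 letters and RPL22L1 with 6.

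Around the exit tunnel, RPL35 and RPL31 went in opposite directions in HepG2. RPL35 (ENSG00000136942.14, chr9:124857880-124861981), at the rim where targeting factors dock, had 4240, 5166 and 4668 CPM in GM12878, 2398, 1670 and 2031 in HepG2 and 3329 and 2649 in K562. The 3 lines did not overlap, with GM12878 highest and HepG2 lowest. The log2 change was -1.20 ± 0.171 in HepG2 against GM12878 (adjusted p = 3.05e-08, edgeR), which passed in all 16 alternatives, and -0.65 ± 0.192 in K562 against GM12878 (adjusted p = 0.00604), which did not without GM12878 replicate 2, without K562 replicate 2, or without the filter on low counts. RPL31, also on the rim, rose by 0.86 ± 0.175 in HepG2 against GM12878 (adjusted p = 3.50e-05, edgeR; 1912 ± 184 and 3478 ± 641 CPM, SD, n = 3 each) and passed in all 16. Against GM12878, RPL23A was higher in HepG2 and RPL4 and RPL26 lower (log2 0.47, -0.47 and -0.57). Each lost the call without 1 or more libraries and under other settings. RPL23A lost it without GM12878 replicate 1, 2 or 3 or HepG2 replicate 1. It also did so with library totals (adjusted p = 0.744, edgeR) and with pseudogene reads added. RPL4 lost it without GM12878 replicate 1 or HepG2 replicate 2 or 3. It also did so without the filter on low counts, with known models only and by DESeq2's Wald test. RPL26 lost it without HepG2 replicate 2, without the filter and with known models only. RPL17, RPL19 and RPL39 did not pass in any comparison. The HepG2 change of RPL26 reversed when known models alone were counted (log2 0.31, adjusted p = 0.226, edgeR). Its known models held 16.8% ± 0.615 of its reads in GM12878, 27.4% ± 1.59 in HepG2 (SD, n = 3 each) and 27.5% ± 2.05 in K562 (SD, n = 2).

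RPL37A (ENSG00000197756.9, chr2:216498189-216579180), a zinc-binding protein of the outer shell, was higher in HepG2 than in both other lines. It had 4887, 5038 and 4569 CPM in GM12878, 9493, 7672 and 8572 in HepG2 and 2758 and 4333 in K562, and the 3 lines did not overlap. The log2 change was 0.83 ± 0.165 in HepG2 against GM12878 (adjusted p = 2.48e-05, edgeR) and -1.27 ± 0.190 in K562 against HepG2 (adjusted p = 1.25e-07), and both passed in all 16 alternatives. Reads of RPL35 per read of RPL37A were 0.868, 1.03 and 1.02 in GM12878, 0.253, 0.218 and 0.237 in HepG2 and 1.21 and 0.611 in K562, so the order of these genes within HepG2 does not rest on scaling. RPL13 had 4647, 5160 and 4696 CPM in GM12878, 8421, 9119 and 7241 in HepG2 and 4360 and 7445 in K562, where K562 overlapped both other lines. It rose by 0.77 ± 0.168 in HepG2 against GM12878 (adjusted p = 1.02e-04, edgeR), also in all 16 alternatives. RPL35, which fell in HepG2 against GM12878, and RPL37A, RPL13 and RPL31, which rose, all carry the TOP motif, as the starts of RPL35 (chr9:124861943-124861972, minus strand), RPL37A (chr2:216498829-216498858, plus strand), RPL13 (chr16:89560667-89560696, plus strand, 1 of 3 listed starts) and RPL31 (chr2:101002274-101002303, plus strand) show.
RPL35: agccccgcctacttcCTCTTTCCCTCggag
RPL37A: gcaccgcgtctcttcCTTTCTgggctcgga
RPL13: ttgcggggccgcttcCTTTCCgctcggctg
RPL31: acaatccttcgcgctCTTCCTTTCCaactt
Runs of 11, 6, 6 and 10 letters began at these starts.

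RPL9 (ENSG00000163682.16, chr4:39452521-39458949), which lies near the base of the P stalk, was the only member called higher in K562 against both other lines. It had 200, 174 and 155 CPM in GM12878, 267, 296 and 184 in HepG2 and 422 and 614 in K562, and K562 was above all other libraries. The log2 change was 1.54 ± 0.282 against GM12878 (adjusted p = 1.30e-05, edgeR) and 1.08 ± 0.254 against HepG2 (adjusted p = 3.27e-04). The latter kept an adjusted p under 0.05 in all 16 alternatives, though not always a 2-fold change. When the reads of its pseudogenes were added, the first was 0.21 (adjusted p = 0.442) and the second 0.46 (adjusted p = 0.0363). The copies' share of the reads was 93.2 to 94.6% in GM12878, 89.9 to 90.7% in HepG2 and 83.7 to 86.6% in K562, and K562 had the lowest share of the 3 lines in both libraries.

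**Figure D5:**
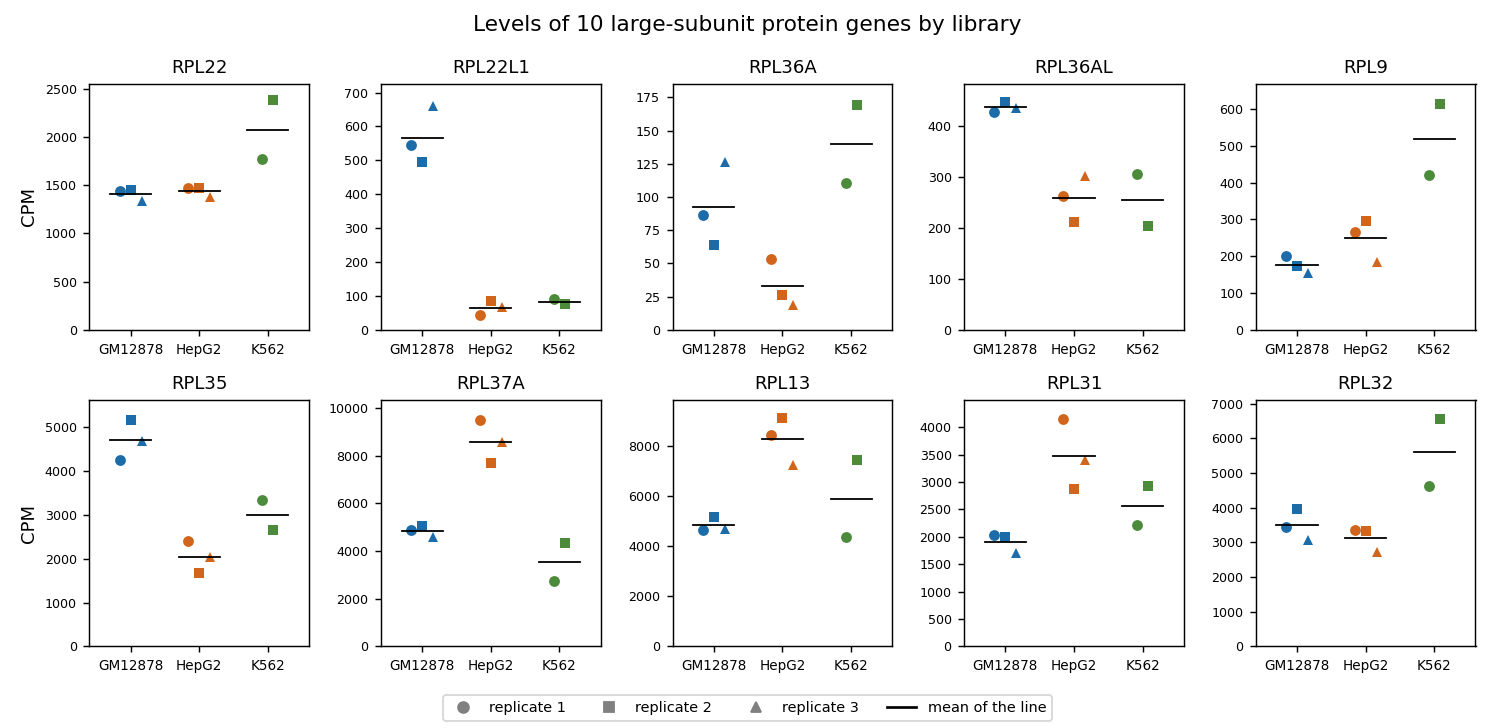
Level in CPM (axes from 0) of 10 members in each library, with the mean of each line as a bar. RPL22L1 is high in GM12878 alone, RPL37A, RPL13 and RPL31 have their highest mean in HepG2, and RPL35 is lowest there.

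Among the remaining members of the outer shell, RPL36 was lower in HepG2 than in GM12878 (log2 -0.72 ± 0.173, adjusted p = 3.42e-04, edgeR) and higher in K562 than in HepG2 (0.81 ± 0.187, adjusted p = 2.68e-04), in all 16 alternatives. RPL32 and RPL7 were higher in K562 than in HepG2 (log2 0.84 ± 0.184 and 0.68 ± 0.215, adjusted p = 1.21e-04 and 0.00720, edgeR), also in all 16. For RPL7 most reads of gene and copies lay on copies, and the change passed with these added as well. RPL11 and RPL5 hold 5S rRNA in the subunit and, outside it, bind MDM2. RPL5 was lower in HepG2 than in GM12878 (log2 -0.47 ± 0.166, adjusted p = 0.0139, edgeR) but not without the filter on low counts, with known models only, or without HepG2 replicate 2 or 3. RPL11 was higher in K562 than in HepG2 (0.61 ± 0.180, adjusted p = 0.00403) but not without K562 replicate 2. On the face towards the small subunit, RPL24, which forms a bridge to it, fell by 0.64 ± 0.179 on the log2 scale in HepG2 against GM12878 (adjusted p = 0.00196, edgeR), in all 16 alternatives, from 2731 ± 264 to 1746 ± 211 CPM (SD, n = 3 each). RPL23 was higher in HepG2 than in GM12878 (0.56 ± 0.164, adjusted p = 0.00285, edgeR) but not with library totals (adjusted p = 0.329), and RPL3, RPL8, RPL10A and RPL30 passed in no comparison. RPL41, also at a bridge, was lower in HepG2 than in GM12878 (-0.89 ± 0.253, adjusted p = 0.00236) and its sign was the other way when known models alone were counted (0.22, adjusted p = 0.683). RPL10, which joins the subunit late in its assembly, was higher in K562 than in GM12878 (0.78 ± 0.216, adjusted p = 0.00470, edgeR) but not without K562 replicate 2, and its K562 libraries, at 2297 and 4826 CPM, overlapped with those of GM12878 (1785 to 2327).

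The lists of related genes, chosen with earlier results of these data known, are given by their counts at adjusted p under 0.05 and at least 2-fold (edgeR). Of 34 small-subunit protein genes 1 was higher and none lower in HepG2 than in GM12878, 2 and 1 in K562 against GM12878, and 0 and 1 in K562 against HepG2. Their median log2 changes were 0.10, 0.11 and 0.20, and those of the members 0.06, 0.21 and 0.23. Of 20 other genes known for TOP mRNAs (translation factors and others), 1 and 2, 0 and 0, and 1 and 1 were higher and lower in the same order. Of 24 tested factors that assemble and export the large subunit (30 listed), 1 was higher and 12 were lower in HepG2 than in GM12878, 1 and 2 in K562 against GM12878, and 11 and 1 in K562 against HepG2, where 49.1%, 28.7% and 44.1% of all tested genes passed in either direction. Their median log2 change was -1.04, -0.12 and 1.12 in the 3 comparisons, where that of all tested genes was 0.02, 0.00 and -0.07. These factors are read far less, at 0.354 to 0.372% of all reads in GM12878, 0.166 to 0.186% in HepG2 and 0.438 and 0.238% in K562.

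Use of transcripts within a member was compared next. With edgeR's diffSpliceDGE on known transcripts, 39 members could be tested, and none reached an adjusted Simes p under 0.05 with a shift of at least 10 percentage points, where 1.63% of 676 tested genes did for HepG2 against GM12878, 0.592% for K562 against GM12878 and 0.888% for K562 against HepG2. At an unadjusted p under 0.05 there were 9, 3 and 10 of the 39 members, where 13.0%, 6.51% and 10.9% of the 676 genes were, and no other tool was run. RPLP1 had an adjusted p of 0.0195 (edgeR) for K562 against HepG2, with its largest shift at 3.84 points. The largest shift near the threshold was in RPL34: RPL34-206, an annotated transcript with 2 exons, held 6.90, 5.45 and 6.25% of the reads on its tested known transcripts in GM12878, 20, 38.9 and 34.8% in HepG2 and 9.09 and 6.56% in K562, from 1 to 16 reads a library. HepG2 lay above the other lines without overlap, but the adjusted p was 0.0830 (edgeR) against GM12878 and 0.228 for K562 against HepG2. It was 0.0304 when GM12878 and HepG2 alone were fitted, and 0.0428 or 0.0392 without K562 replicate 1 or 2.

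Reads on known models, incomplete matches and all other models of each member were compared in the same way, and of 46 members none passed with edgeR's diffSpliceDGE, where 0.279%, 0.124% and 0.00% of 3222 tested genes did. At an unadjusted p under 0.05 there were 8, 2 and 10 of the 46 members, where 6.30%, 1.83% and 3.63% of the 3222 genes were. RPL35 had the lowest adjusted p, 0.0573 (edgeR) for HepG2 against GM12878, with a shift of 2.7 points. Lowest among those with a shift of at least 10 points was RPLP0 in K562 against HepG2 (adjusted p = 0.0886, edgeR): incomplete matches held 16.1, 14.8 and 14.7% of its reads in GM12878, 21, 25 and 27.8% in HepG2 and 12.7 and 9.69% in K562, again with HepG2 highest and no overlap. With a minimum of 20 reads in place of 10 it passed (adjusted p = 0.0361). RPL19, at the exit rim, had 12.4, 13.4 and 9.03% incomplete matches in GM12878, 18.4, 25.3 and 26.7% in HepG2 and 10.9 and 14.6% in K562, with an adjusted p of 0.148 (edgeR) for HepG2 against GM12878, 0.0183 when these lines alone were fitted, and 0.0107 or 0.00576 without K562 replicate 1 or 2. RPL7A had 22.4% ± 2.57 in GM12878, 35.7% ± 3.07 in HepG2 (SD, n = 3 each) and 23.6% ± 0.641 in K562 (SD, n = 2), with an adjusted p of 0.595. Not every member went this way: RPL5 had 40.3% ± 4.05 in GM12878 and 33.4% ± 4.25 in HepG2 (SD, n = 3 each). Over all members pooled, HepG2 overlapped both other lines in this class. Incomplete matches held 9.93 to 10.9% in GM12878, 9.79 to 12.5% in HepG2, and 9.83 and 8.53% in K562. In the other annotated genes pooled, the class stood highest in HepG2, at 26.6 to 28.8% against 18.9 to 20.4% in GM12878 and K562.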

How the data were processed

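The submitters' processing notes name minimap2 and hg38, and the authors deposited TALON abundance tables, per the labels. Versions are not given in the sources used here. The deposited values are read counts per transcript model, not normalized, with exon number and length as other values per the file headers. Coordinates and principal transcripts are from GENCODE release 29, and start sequences from RefSeq (GRCh38.p14). Of several principal transcripts, the highest-ranked tag was taken, then the longest coding sequence. Only models of at least 300 bases are listed as known.

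Counts were summed by gene, filtered (filterByExpr), scaled by TMM and tested in edgeR 4.0.16 (R 4.3.3, two-sided) in 1 fit over 8 libraries, which shares 1 estimate of the spread. Usage was tested with diffSpliceDGE on features with at least 10 reads. Members, lists and tests were chosen with earlier results of these data known. Values in every library were given for called members, P stalk genes, the paralog pairs, the 3 highest, the 3 lowest and the 3 with most reads outside known models. RPL31 and others are given by line. Libraries of a line differed beyond counting noise (chi-square over its degrees of freedom 1.28 to 2.34, and 4.23 in K562). Each library was counted as 1 sample, but such a spread cannot show whether libraries came from separate cultures. The alternatives were library totals, DESeq2 1.42.0 size factors and Wald test, no filter, known models only, pseudogene reads added, 2 lines only, a replicate block and leaving out each library. The gene test was tested on simulated data and recovered 32.6%, 26.8% and 45.3% of genes changed 2-fold, for HepG2 against GM12878 (4025 genes), K562 against GM12878 (3983) and K562 against HepG2 (4034), and 90.9%, 81.7% and 88.0% of those changed 4-fold. Recovery meant an adjusted p under 0.05 (edgeR) in the right direction, whatever the fitted size. Of the genes passing, 6.09%, 5.77% and 4% were unchanged ones. Far fewer genes were changed than passed in the real data (86 and 88 in the first comparison). The changed genes were drawn from all tested genes, so these rates are not those of the members.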

Additional observations from a re-analysis of the deposited data

How the results depend on the processing

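Of 46 member changes at adjusted p under 0.05 (edgeR), 621 of 736 values under the alternatives kept direction and call, 112 lost the call and 3 reversed: with known models only, RPL26 (0.31) and RPL41 (0.22) in HepG2 against GM12878 and RPL41 (0.21) in K562 against GM12878. The cause was not tested. In all 16 alternatives 7 of 18, 1 of 15 and 6 of 13 member changes passed in HepG2 against GM12878, K562 against GM12878 and K562 against HepG2, and 11 of the 15 were lost without K562 replicate 2. With library totals, members at adjusted p under 0.05 were 29 in HepG2 against GM12878 and 30 in K562 against HepG2 in place of 18 and 13, and members also past 2-fold 7 and 7 in place of 3 and 3. In K562 against GM12878 the latter were 4 with known models only and 1 with pseudogene reads added, in place of 2. Called genes of the whole table (2348, 1371 and 2105) were 3746 and 3298 without the filter in HepG2 against GM12878 and K562 against HepG2, and 777, 459 and 714 with known models only, where fewer genes were tested. The members' share of reads (11.8, 9.61 and 13.2% in GM12878, HepG2 and K562) was 6.92, 5.73 and 8.21% on known models, 13.2% in GM12878 and 10.47% in HepG2 with pseudogene reads, and 12.7% in HepG2 after TMM scaling.

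Leaving out 1 library gave 1898 to 2979, 1114 to 1855 and 1675 to 2503 called genes in the 3 comparisons, 13 to 22, 9 to 27 and 10 to 23 members at adjusted p under 0.05, and 2 to 4, 2 to 6 and 2 to 5 also past 2-fold. Genes called for transcript usage (11, 4 and 6) ranged over 5 to 17, 4 to 6 and 1 to 6, and members among them 0 to 2, 0 to 1 and 0 to 0. Without K562 replicate 1, RPL39 was called for K562 against GM12878, and without K562 replicate 2, RPL18 for HepG2 against GM12878. For model class (9, 4 and 0) the ranges were 1 to 25, 1 to 4 and 0 to 1, with 0 to 1, 0 to 0 and 0 to 0 members. With 2 lines fitted alone, HepG2 against GM12878 gave 20 and 22 genes for transcript usage and class, with 1 member in each (RPL34 and RPL19). With at least 20 reads, class calls were 2 in K562 against GM12878 and 2 in K562 against HepG2, with 1 member (RPLP0). Leaving out a K562 library leaves 1 sample, assumed to vary like the other lines.

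Replicate numbers did not pair the libraries: same-numbered libraries correlated at -0.053 to 0.038. With the replicate number as a block, 18, 10 and 12 members were at adjusted p under 0.05 and 3, 2 and 2 also past 2-fold, transcript usage was called for 1 gene in K562 against HepG2 and class for 2 in K562 against GM12878. Depth limits RPL36A, RPL21 and RPL22L1 most, with 5 to 85 reads a library.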

Other observations

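Paralogs and a readthrough gene outside the list were looked at after their values were seen. RPL39L, a paralog of the tunnel protein RPL39 best known from testis, had 2, 2 and 5 reads in GM12878, 0 in each HepG2 library and 15 and 37 in K562. It stood at 112 ± 21.4 CPM in K562 (SD, n = 2), at least 29.9-fold higher than the floor of 3 counts over the HepG2 libraries (3.76 CPM), and against GM12878 the log2 change was 2.25 ± 0.568 (SE, adjusted p = 0.00136, edgeR). RPL39 itself had 955 ± 406 CPM in K562, 1053 ± 183 in HepG2 and 1012 ± 105 in GM12878 and passed in no comparison. RPL26L1 was lower in K562 (61.2 ± 32.8 CPM) than in GM12878 (145 ± 10.7), with a change of -1.34 ± 0.423 on the log2 scale (adjusted p = 0.0110, edgeR). RPL7L1, which works in ribosome assembly, was higher in K562 (177 ± 25.4 CPM) than in HepG2 (92.1 ± 20.5), by 0.89 ± 0.328 (adjusted p = 0.0209, edgeR). These values were not recomputed under the alternatives. The readthrough gene RPL17-C18orf32 had 183 to 239 CPM in the 8 libraries and passed in no comparison.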
